A study of Homo sapiens with 24 samples.

Results

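The 10 small nucleolar RNAs (snoRNAs) encoded in the introns of GAS5 were SNORD74, SNORD75, SNORD76, SNORD77, SNORD44, SNORD78, SNORD79, SNORD80, SNORD47 and SNORD81, named here in the order in which they lie along the host transcript. They were taken by name from a table of 175946 annotated non-coding features, leaving out rows labelled as lncRNA, and made up 10 of those features. The same 10 names were found among the ATAC windows centred on the same features.

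All libraries came from HEK293, a human cell line of embryonic kidney origin, with the wild-type genotype in every group. Cells overexpressed eGFP (the control, here GFP), LMNA, LMNB1 or LMNB2, the genes of the A-type and of the B-type lamins, filament proteins found under the nuclear membrane. Small RNA was sequenced from 3 libraries per group and chromatin accessibility (ATAC-seq) from another 3 per group, 24 libraries in all, and the labels put the small RNA libraries in batch 1 and the ATAC libraries in batch 2. The vector and promoter behind the overexpression and its duration are not given in the sources used here, and nothing in the labels says that replicates were separate cultures, so p-values measure only the spread between these libraries. The tables hold non-coding features, so HEK293 identity was not checked against protein-coding markers. Features at the overexpressed loci followed the labels: MIR7108, at LMNB2, had 3301 to 4112 counts in the LMNB2 small RNA libraries and 1 to 10 elsewhere, LMNB1-DT had 2961 to 3153 counts in the LMNB1 libraries and 7 to 69 elsewhere, and lnc-SEMA4A-1, at LMNA, had 869602 to 1063696 ATAC counts in the LMNA libraries and 1573 to 4911 elsewhere.

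GAS5 is a non-coding host gene. Its spliced RNA is rapidly degraded during active growth, and its introns are the source of C/D box snoRNAs, which are trimmed from the debranched intron and bound by fibrillarin and its partner proteins. Many C/D box snoRNAs guide methylation of the ribose 2′-hydroxyl at a position of ribosomal RNA through a short antisense stretch next to the D or D′ box. SNORD44 is a guide for the small-subunit rRNA, and SNORD47, SNORD74, SNORD75, SNORD76, SNORD78, SNORD79, SNORD80 and SNORD81 are guides for the large-subunit rRNA. SNORD44 and SNORD47 are also used as reference RNAs in PCR assays of small RNA. All 10 are released from introns of the same host transcript.

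The snoRNAs lay on the minus strand of chromosome 1 (GRCh38 per the submitters' processing notes), each in an intron of GAS5. SNORD74, the first, occupied chr1:173867649-173867770 in the table, and SNORD81, the last, chr1:173864121-173864247. SNORD44, in the middle of the series, occupied chr1:173865943-173866053, and SNORD47, the last but for SNORD81, chr1:173864344-173864470. The table's intervals were 110 to 131 bases long and held the RefSeq gene of 60 to 81 bases with 25 bases added on each side (25 and 23 for SNORD77), so reads from the flanking intron near each snoRNA are included. Counted from the 5′ end shared by 14 of the 47 GAS5 intervals in the table (173868014), the snoRNAs started between 269 bases (SNORD74) and 3792 bases (SNORD81) downstream. The farthest upstream of the 47 intervals began at 173869031.

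The RefSeq promoter window of GAS5 is shown because the 10 snoRNAs share this host gene and because ATAC flanks described at the end overlap it. It is the window (GRCh38.p14) around the outermost GAS5 start, upstream of the commonest 5′ end of the deposited GAS5 intervals, and whether it drives the snoRNAs was not tested. It lies at chr1:173868996-173869295, on the minus strand and printed 5′ to 3′, with 250 bases before the start and 50 after it. Capitals mark matches to CCAAT, searched on both strands with no overlap between matches.
GAS5 promoter: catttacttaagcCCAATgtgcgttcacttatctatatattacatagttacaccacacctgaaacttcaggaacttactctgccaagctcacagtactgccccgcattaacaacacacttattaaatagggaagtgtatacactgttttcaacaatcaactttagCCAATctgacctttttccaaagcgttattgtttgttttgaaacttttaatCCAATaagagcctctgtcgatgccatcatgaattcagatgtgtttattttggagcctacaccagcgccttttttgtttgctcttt
CCAAT occurred 3 times on the printed strand, beginning 237, 85 and 35 bases before the start. Of 35116 RefSeq promoter windows of the same length, 34.6% held CCAAT on either strand and 10.8% held it at least 2 times. A match describes these letters only and was not tested as a bound site.

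The small RNA table summed to 132507051 to 195074742 counts per library and the ATAC windows on features to 156043245 to 290158229. The 10 snoRNAs together received 1007911 to 1937981 counts per library, which was 0.742% to 1.05% of the table's sum and 3.54% to 8.49% of the counts on features without a lncRNA label. Nearly every count on the host gene fell on the snoRNAs: the shortest GAS5 interval that spans all 10 and reaches the farthest 5′ end (chr1:173863859-173869031) exceeded their sum by only 30 to 58 counts, so the snoRNAs held 99.995% to 99.998% of it. The same reads were counted again in each overlapping row. In all, 63 rows shared bases with a snoRNA, 52 of them lncRNA-labelled, and these rows held 31.6% (GFP replicate 3) to 44.4% (GFP replicate 1) of the whole table. Strand was not separated in the counting, since lnc-ZBTB37-2, a lncRNA on the plus strand over SNORD79, SNORD78 and SNORD44, differed from the sum of those 3 snoRNAs by 3 to 13 counts. The 2 GAS5-AS1 intervals, which share no snoRNA, had 1 to 15 counts.

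SNORD44 was the most abundant of the 10 and SNORD77 the least, with an 11486-fold difference in mean level. Levels between snoRNAs are given as CPM per 100 bases of interval, where CPM is the count divided by the library size in units of 1000000 counts and the library size was scaled by the trimmed mean of M-values (TMM). SNORD44 had a mean over the 12 libraries of 5713 CPM per 100 bases and ranged from 3605 to 10438. SNORD81 followed at 1464 and SNORD74, the snoRNA nearest the 5′ end, at 229.0. A middle set held SNORD76 (82.9), SNORD47 (73.99), SNORD78 (49.3), SNORD80 (36.1), SNORD75 (30.0) and SNORD79 (16.2). SNORD77 had 0.497 CPM per 100 bases, from 45 to 193 counts per library, and 71.1% to 94.5% as many counts were assigned to SNORA103, whose interval shares 40 bases with that of SNORD77, so the few reads there could not be assigned to either alone. The order did not follow position in the gene, since the most and the least abundant snoRNA were neighbours.

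The order of levels was nearly the same in every library. Of the 9 neighbouring pairs in the order, 6 kept their order in all 12 libraries. SNORD74 exceeded SNORD76 in 11 of 12, SNORD80 exceeded SNORD75 in 10 of 12 and SNORD76 exceeded SNORD47 in 9 of 12, so the last of these neighbours did not differ beyond their spread. The near-identical names elsewhere in the genome added little: SNORD74B on chromosome 21 had 0 counts and SNORD77B on chromosome 8 had 0 to 5.

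**Figure D1:**
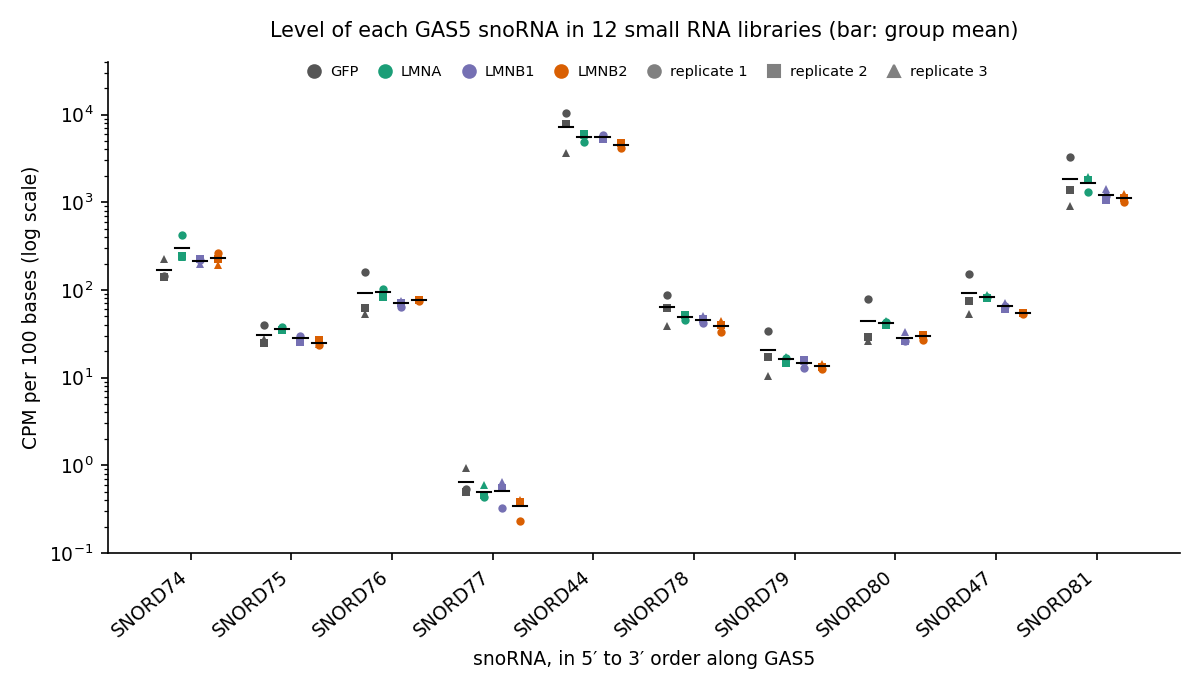
Small RNA level of each GAS5 snoRNA in CPM per 100 bases of interval (log axis), in 5′ to 3′ order along the gene. Points are the 3 libraries of each group (colour, with the replicate as the shape) and bars are group means. SNORD44 and SNORD81 stood highest and SNORD77 lowest in all 4 groups, and the GFP libraries were the most scattered for most snoRNAs.

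Within the host gene, SNORD44 and SNORD81 together dominated the output. SNORD44 held 67.2% to 79.3% of the summed counts of the 10 and SNORD81 16.0% to 25.5%. These shares need no library scaling. The share of SNORD74 was smaller and was 1.06%, 1.56% and 4.87% in the GFP libraries, 6.54%, 3.13% and 3.03% with LMNA, 3.17%, 3.54% and 2.85% with LMNB1, and 4.97%, 3.81% and 3.25% with LMNB2. GFP replicates 1 and 2 had the 2 lowest shares of SNORD74 of all 12 libraries, and GFP replicate 3 lay among the lamin libraries. The ratio of SNORD74 to SNORD44 counts was 3.47% ± 2.99 with GFP, 6.24% ± 3.00 with LMNA, 4.29% ± 0.39 with LMNB1 and 5.60% ± 1.25 with LMNB2 (SD, n = 3), and the groups overlapped.

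The GFP control libraries stood apart from each other, which bears on every comparison with GFP. In GFP replicate 1, 8 of the 10 snoRNAs were higher than in all 9 lamin libraries, the exceptions being SNORD74 and SNORD77. In GFP replicate 3, 4 snoRNAs (SNORD44, SNORD76, SNORD79 and SNORD81) were lower than in all 9. The share of all features placed so is not given here, so these counts are not read as particular to the set. Median log2 CPM minus the GFP mean in GFP replicates 1 and 3 was 0.75 and -0.63 for the 10. It was 0.45 and -0.25 for 185 other SNORD features, 0.76 and -0.53 for the snoRNAs of SNHG1, and -0.17 and 0.38 for those of RPL13A. SNORD81 fell most steeply between these 2 controls, from 4198 CPM in replicate 1 to 1142 in replicate 3, a 3.68-fold difference within a single group. The median SD of log2 CPM among the GFP libraries was 0.78 for the 10 snoRNAs, 0.52 for the 1220 tested features at least as abundant as the least abundant snoRNA other than SNORD77, and 0.35 for all 33893 tested features. Within the lamin groups the corresponding medians were 0.13, 0.13 and 0.30. The lamin replicates were thus tight for these snoRNAs while the GFP replicates were not. GFP replicate 1 also had the largest share of the table in rows over the snoRNAs (44.4%) and GFP replicate 3 the smallest (31.6%). When libraries were scaled by the total over features that share no base with the snoRNAs, 0 of the 10 were called against GFP in LMNA, LMNB1 or LMNB2, and their median log2 fold changes were -0.07, -0.23 and -0.41, beside -0.10, 0.07 and 0.06 over all features.

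**Figure D2:**
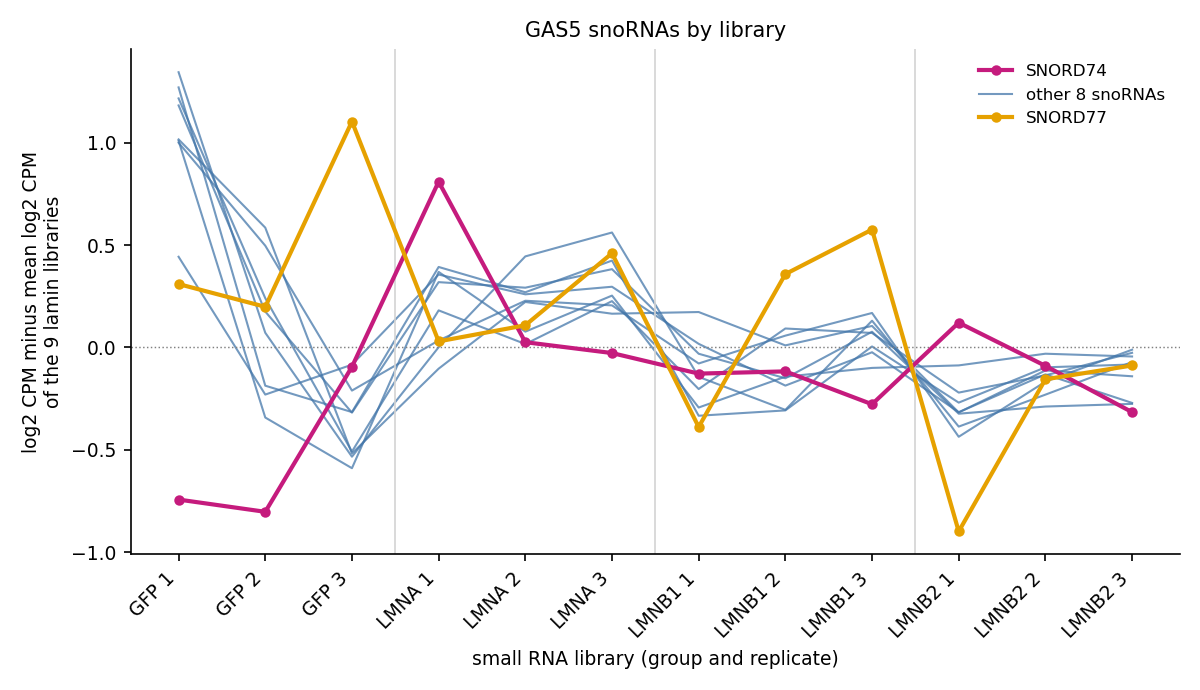
log2 CPM of each GAS5 snoRNA minus its mean over the 9 lamin libraries (vertical axis), by small RNA library (horizontal axis), with SNORD74 and SNORD77 drawn apart from the other 8. The other 8 were high in GFP replicate 1 and, on the whole, low in GFP replicate 3, while SNORD74 was low in GFP replicates 1 and 2, and the lines were close together in the lamin libraries.

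The snoRNAs of the set were not all alike in this profile. As a description over the 12 libraries, which share the same scaling, log2 CPM of each snoRNA was set against the mean of the other 9: Pearson's r was 0.73 to 0.97 for 8 of them, 0.13 for SNORD77 and -0.34 for SNORD74. Among 1400 non-lncRNA features elsewhere, the 3 whose log2 CPM was most like the mean of the 10 over the 12 libraries were SNORD27 (r = 0.99), SNORD12C (r = 0.97) and SNORD58B (r = 0.97), all C/D box snoRNAs. SNORD27 lies in SNHG1, another non-coding snoRNA host, and read 523, 243 and 174 CPM in GFP replicates 1, 2 and 3 against 178 to 290 in the lamin libraries.

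No GAS5 snoRNA passed an adjusted p under 0.05 between any lamin and GFP. The test was edgeR's quasi-likelihood test over all 12 libraries with Benjamini-Hochberg adjustment over all 33893 tested features, and the 3 comparisons share the GFP libraries. All 10 snoRNAs passed the count filter. On counts simulated with the same spread in every group, this fit recovered 29% of log2 changes of 1 in LMNB1 against GFP. The 10 snoRNAs were more scattered in GFP than in the lamin groups, so that rate is not theirs. Real changes of that size could be missed. For LMNA, 0 of 10 were called against a background of 0% (0 of 33893 features), for LMNB1 0 of 10 against 0.0384% (13 features, all higher), and for LMNB2 0 of 10 against 2.66% (901 features, 1.91% or 646 higher and 0.752% or 255 lower, or 281 higher and 1 lower when libraries were scaled by total counts alone). At an unadjusted p under 0.05, 1, 0 and 3 of the 10 passed for LMNA, LMNB1 and LMNB2, against 5.46%, 5.51% and 19.9% of all features. Median log2 fold changes of the 10 were -0.16, -0.43 and -0.65, beside -0.05, -0.05 and -0.04 over all tested features, and 3, 1 and 1 of the 10 were positive. In bulk RNA, fewer cells of a kind and less RNA per cell cannot be told apart.

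These medians rested on GFP replicate 1. Without that library they were 0.40, 0.06 and -0.07, and without GFP replicate 3 they were -0.33, -0.66 and -0.86. Leaving out GFP replicate 3 also brought 5 snoRNAs past the threshold in LMNB2 by edgeR, all lower, while 1.85% of all features were then called lower (668 of 36091, against 255 with all libraries). They had log2 fold changes of -0.96 for SNORD44 (adjusted p = 0.00718), -0.92 for SNORD78 (adjusted p = 0.00898), -0.89 for SNORD79 (adjusted p = 0.0167), -1.02 for SNORD47 (adjusted p = 0.00957) and -1.03 for SNORD81 (adjusted p = 0.0399). On total counts the medians were 0.04, -0.15 and -0.23, where the median of all features moved to -0.04, 0.11 and 0.19.

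**Figure D3:**
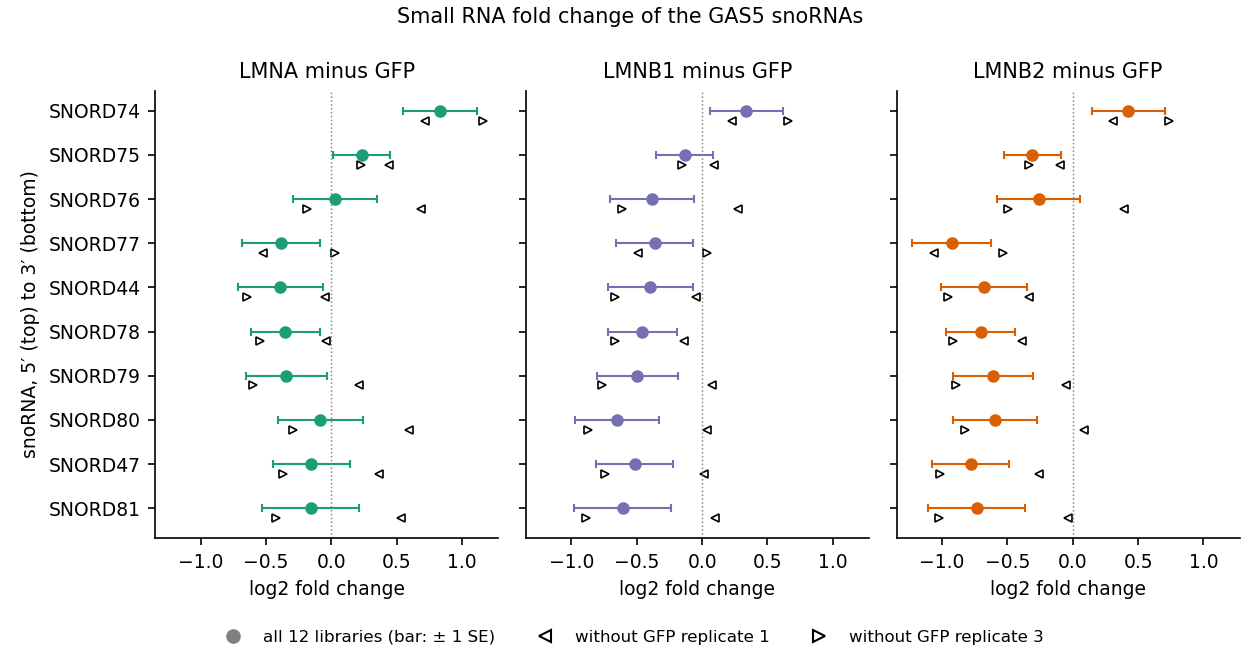
log2 fold change of each GAS5 snoRNA in LMNA, LMNB1 and LMNB2 over GFP (horizontal axis) in 5′ to 3′ order. Filled points with bars of ± 1 SE come from all 12 libraries, and open triangles are the estimates without GFP replicate 1 (left-pointing) or 3 (right-pointing). The snoRNAs other than SNORD74 and SNORD77 moved up without replicate 1 and down without replicate 3.

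SNORD44, the abundant small-subunit guide, read 11586, 8594 and 4002 CPM in the GFP libraries, 5331, 6683 and 6422 with LMNA, 6459, 5769 and 6161 with LMNB1, and 4598, 5300 and 5196 with LMNB2. All 9 lamin libraries lay between the highest and the lowest control. Its log2 fold changes were -0.39 ± 0.33 (SE) for LMNA, -0.40 ± 0.33 for LMNB1 and -0.68 ± 0.33 for LMNB2, with adjusted p of 0.929, 0.880 and 0.256 by edgeR. SNORD81, the second in abundance, read 4198, 1737 and 1142 CPM with GFP, 1654, 2250 and 2440 with LMNA, 1496, 1338 and 1810 with LMNB1, and 1265, 1409 and 1574 with LMNB2, with log2 fold changes of -0.16 ± 0.37, -0.61 ± 0.37 and -0.74 ± 0.37. Here too the controls enclosed every lamin library.

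SNORD74, the large-subunit guide nearest the 5′ end of the gene, read 176, 169 and 277 CPM with GFP and 518, 301 and 290 with LMNA. The 3 LMNA libraries were all above the 3 GFP libraries, as was so for 4.16% of all features, and 1 of the 10 snoRNAs was placed so, while 0 of 10 had all 3 LMNA libraries below GFP, beside 5.34% of all features. The log2 fold change was 0.83 ± 0.28 (unadjusted p = 0.00845, adjusted p = 0.882 by edgeR). Without GFP replicate 3 it was 1.16 with an adjusted p of 0.0252, in a fit that called 0.776% of all features higher. Over the fits without each library in turn it ran from 0.52 to 1.16, with adjusted p of 0.0252 to 0.99987 by edgeR. In LMNB1 it read 270, 272 and 244 CPM and in LMNB2 321, 278 and 237, and both groups overlapped GFP (0 of 10 snoRNAs lay wholly above GFP in either, beside 4.76% and 12.1% of all features), with log2 fold changes of 0.34 ± 0.28 and 0.43 ± 0.28.

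SNORD77, the rarest, read 0.627, 0.581 and 1.09 CPM with GFP and 0.271, 0.454 and 0.476 with LMNB2. The 3 LMNB2 libraries were all below the 3 GFP libraries, which held for 1 of the 10 snoRNAs and for 10.2% of all features, and in LMNB1 for 0 of 10 and 5.29%. Its log2 fold change was -0.93 ± 0.30 (unadjusted p = 0.00846, adjusted p = 0.116 by edgeR). With no count filter the adjusted p was 0.00151, where 0.594% of all features were called lower, so whether it was called depended on the filter. Counts were 45 to 71 with LMNB2 and 73 to 193 with GFP, and reads shared with SNORA103 are included.

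SNORD47, a large-subunit guide and PCR reference RNA, read 192, 95.3 and 67.7 CPM with GFP, 105.3, 103.4 and 110.1 with LMNA, 82.7, 76.1 and 89.1 with LMNB1, and 67.5, 69.1 and 69.8 with LMNB2. The lamin groups did not overlap each other, but the share of all features with lamin groups so separated is not given here. GFP overlapped or enclosed each lamin group, its lowest library lying within the range of LMNB2. Against GFP its log2 fold changes were -0.15 ± 0.29, -0.52 ± 0.29 and -0.78 ± 0.30, with an adjusted p of 0.156 for LMNB2 by edgeR. SNORD78 and SNORD79 had their highest library in GFP replicate 1, at 102 and 44.7 CPM, and lamin libraries of 37.7 to 59.7 and 16.5 to 22.5 CPM. In LMNB2 their log2 fold changes were -0.71 ± 0.27 and -0.61 ± 0.31, with adjusted p of 0.154 and 0.276 by edgeR. SNORD75, SNORD76 and SNORD80 had log2 fold changes between -0.65 and 0.23 over the 3 comparisons and overlapped GFP in each.

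The lamins were then compared with each other. Over all 12 libraries the joint edgeR test of LMNA, LMNB1 and LMNB2 called 0 of the 10 snoRNAs, against a background of 1.93% (654 of 33893 features), and the lowest adjusted p was 0.333, for SNORD75. In that fit the GFP libraries do not enter the means compared, but they do enter the estimated spread, the count filter and the scaling. Fitted on the 9 lamin libraries alone, the joint test called 4 of the 10, against a background of 12% (3887 of 32275 features): SNORD47 (adjusted p = 0.00062), SNORD80 (adjusted p = 0.00187), SNORD75 (adjusted p = 0.00366) and SNORD76 (adjusted p = 0.0207). Leaving out each of the 9 lamin libraries in turn gave 3 to 6 calls, while the share of all features called ran from 5.73% to 13.1%. SNORD47, SNORD80 and SNORD75 were called in 9 of 9 such fits and SNORD76 in 6 of 9.

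Among the lamins, the 4 snoRNAs, chosen for description after these values were seen, were highest in LMNA. The GFP mean was above that of LMNA for SNORD47 (118.2 against 106.3 CPM) and SNORD80 (54.0 against 50.9 CPM), and below it for SNORD75 and SNORD76. In the fit of 9 libraries SNORD47 was lower in LMNB2 than in LMNA by a log2 difference of -0.62 ± 0.10 (adjusted p = 0.000357 by edgeR). On total counts the difference was -0.40 ± 0.11 (adjusted p = 0.0197), where the median feature moved by 0.20, and without lncRNA-labelled features it was -0.44 ± 0.08 (adjusted p = 0.00679). The call for SNORD47 thus held under these 3 scalings, which called 10.4%, 13.5% and 20.1% of all features in that pair. SNORD80, a large-subunit guide, read 52.0, 47.7 and 53.1 CPM with LMNA, 31.39, 31.96 and 39.69 with LMNB1, and 32.8, 37.0 and 37.3 with LMNB2. LMNA lay above both B-type lamins with no overlap, while GFP, at 95.4, 34.8 and 31.8, had its highest library above LMNA and its lowest within the range of LMNB1. The 4 snoRNAs described here were picked by the joint test on the same lamin libraries, so separation of their lamin groups adds no support to it. The share of all features so separated is not given here. Its log2 differences from LMNA were -0.57 ± 0.11 for LMNB1 (adjusted p = 0.0146 by edgeR) and -0.51 ± 0.11 for LMNB2 (adjusted p = 0.00541). On total counts these became -0.42 ± 0.13 (adjusted p = 0.196) and -0.29 ± 0.13 (adjusted p = 0.142), so both calls were lost with that scaling, and without lncRNA-labelled features they were -0.46 ± 0.10 (adjusted p = 0.0815) and -0.32 ± 0.10 (adjusted p = 0.0541).

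SNORD75 read 41.2, 38.6 and 39.6 CPM with LMNA, 32.6, 28.3 and 31.7 with LMNB1, and 25.9, 29.4 and 26.7 with LMNB2. LMNA was above both other lamins, which overlapped each other. The log2 difference of LMNB2 from LMNA was -0.54 ± 0.11 (adjusted p = 0.00213 by edgeR), -0.32 ± 0.13 on total counts (adjusted p = 0.101) and -0.35 ± 0.10 without lncRNA-labelled features (adjusted p = 0.0303). SNORD76 read 134, 110 and 124 CPM with LMNA, 84.7, 94.1 and 96.9 with LMNB1, and 97.7, 102 and 101 with LMNB2. No pair of lamins passed the test for SNORD76 on its own, with adjusted p of 0.0621 for LMNB1 and 0.0777 for LMNB2 against LMNA.

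Over the 10 snoRNAs in the 9-library fit, 1 was called in LMNB1 against LMNA (SNORD80), beside 0.812% of all features. In LMNB2 against LMNA 5 were called, all lower (SNORD47, SNORD75, SNORD80, SNORD81 and SNORD44), beside 10.4%, and in LMNB2 against LMNB1 0 were called, beside 9.83%. The calls in LMNB2 against LMNA depended on the scaling. On total counts only SNORD47 and SNORD81 were called, beside 13.5% of all features. Without lncRNA-labelled features only SNORD47 and SNORD75 were called, beside 20.1%. SNORD44 was lower in LMNB2 than in LMNA by a log2 difference of -0.29 ± 0.09 (adjusted p = 0.0463 by edgeR) and SNORD81 by -0.58 ± 0.15 (adjusted p = 0.0356). On total counts the difference was -0.06 ± 0.08 for SNORD44 (adjusted p = 0.664) and -0.35 ± 0.11 for SNORD81 (adjusted p = 0.0347), and without lncRNA-labelled features neither was called (-0.10 ± 0.11, adjusted p = 0.544, and -0.39 ± 0.16, adjusted p = 0.116). Fitted over all 12 libraries, 0 of 10 passed in any of the 3 pairs, beside 0.0118%, 2.01% and 2.19% of all features, and the lowest adjusted p of the 10 in LMNB2 against LMNA was 0.217 (SNORD75). A ratio within the host gene needs no library scaling: SNORD47 counts were 1.98%, 1.55% and 1.71% of SNORD44 counts in LMNA, 1.28%, 1.32% and 1.45% with LMNB1, and 1.47%, 1.30% and 1.34% with LMNB2. The 3 LMNA ratios lay above the other 6, and GFP, at 1.65%, 1.11% and 1.69%, overlapped all of them.

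**Figure D4:**
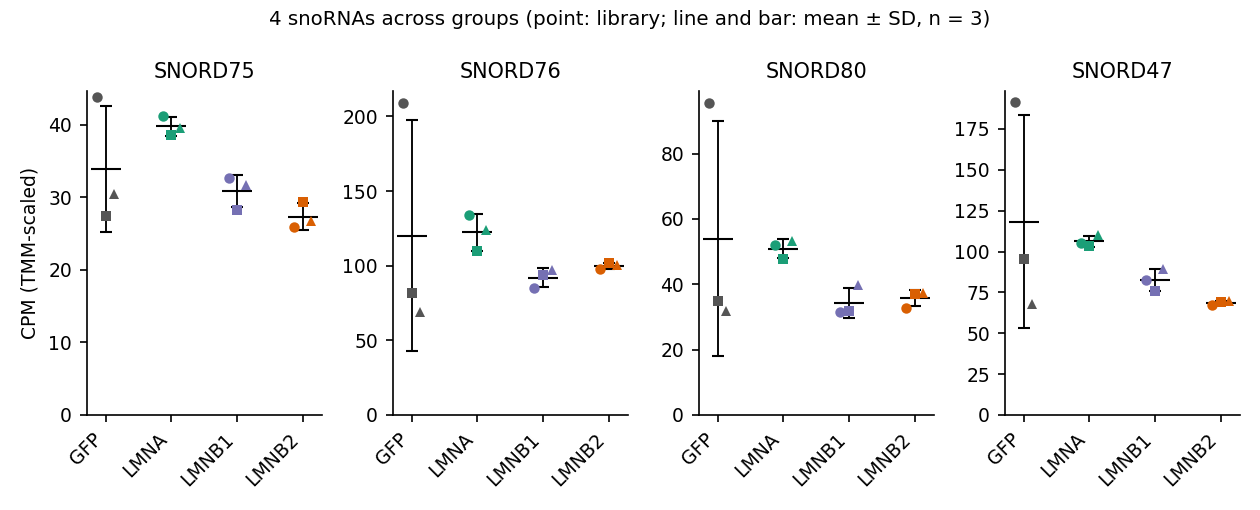
CPM of SNORD75, SNORD76, SNORD80 and SNORD47 in each group, with points for libraries (shape is the replicate) and lines and bars for the mean ± SD (n = 3). LMNA libraries stood above LMNB1 and LMNB2 libraries in all 4 panels, which show snoRNAs picked by the joint test on these lamin libraries. The GFP libraries were spread more widely than those of the lamins.

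The snoRNAs of other hosts give the level against which these values are read. Of 374 other features named SNORD, 185 were tested, and 0, 0 and 10 were called in LMNA, LMNB1 and LMNB2 against GFP (9 higher and 1 lower in LMNB2). Their median log2 fold changes were 0.15, -0.17 and -0.17, beside -0.16, -0.43 and -0.65 for the GAS5 set. The 8 snoRNAs of SNHG1 had medians of -0.04, -0.32 and -0.49 with 0 called, and their most abundant member, SNORD29, read 6120, 4429 and 1861 CPM in GFP replicates 1, 2 and 3, the same order of controls as SNORD44. The 4 snoRNAs of RPL7A had medians of 0.05, -0.27 and -0.30, and the 2 tested of 3 in HSPA8 0.08, -0.16 and -0.02, both with 0 called. In RPL13A, whose 4 snoRNAs had medians of 0.25, 0.05 and 0.35, 1 was called higher in LMNB2. These hosts are protein-coding apart from SNHG1.

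Accessibility was the independent readout at the same loci. ATAC-seq counts reads from open chromatin cut by a transposase, and the authors' windows reach 125 bases past each snoRNA interval on either side. The window on SNORD74 was the open one, at 4.24 CPM per 1000 bases (226 to 477 counts), above 98.5% of all 175946 windows. The other 9 windows had 0.128 to 0.259 CPM per 1000 bases on 5 to 44 counts, beside a median of 0.0945 over all windows. SNORD74's window was the highest of the 10 in 12 of 12 libraries and exceeded the median of the other 9 by 17.0 to 30.5 times. Neighbouring windows in the set shared some bases, so their values are not independent.

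The open window was the one nearest the host's start, not the one on the most abundant snoRNA. SNORD74 lay 269 bases from the commonest GAS5 5′ end and SNORD75, the next, 1076 bases. SNORD44, the most abundant RNA, had 0.176 CPM per 1000 bases at its window, within the range of the other low windows. Upstream, the 500-base flank next to the SNORD74 window (chr1:173868246-173868745) read 10.9 CPM per 1000 bases, and its groups were 11.3 ± 1.04 with GFP, 11.6 ± 0.72 with LMNA, 10.5 ± 1.08 with LMNB1 and 10.0 ± 0.49 with LMNB2 (SD, n = 3). GFP, at 10.2 to 12.2, overlapped every lamin group. The LMNA libraries (11.2 to 12.5) lay above those of LMNB1 (9.27 to 11.2, with the nearest pair at 11.22 and 11.17) and LMNB2 (9.503 to 10.47). This flank was not tested and the share of all flanks so placed is not given here, so no difference between lamins is read from it. Of the flanks that reach the printed promoter, chr1:173868582-173869081 read 6.04 and chr1:173869236-173869735 read 0.192 CPM per 1000 bases, so the higher signal lay towards the gene from the outermost RefSeq start.

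**Figure D5:**
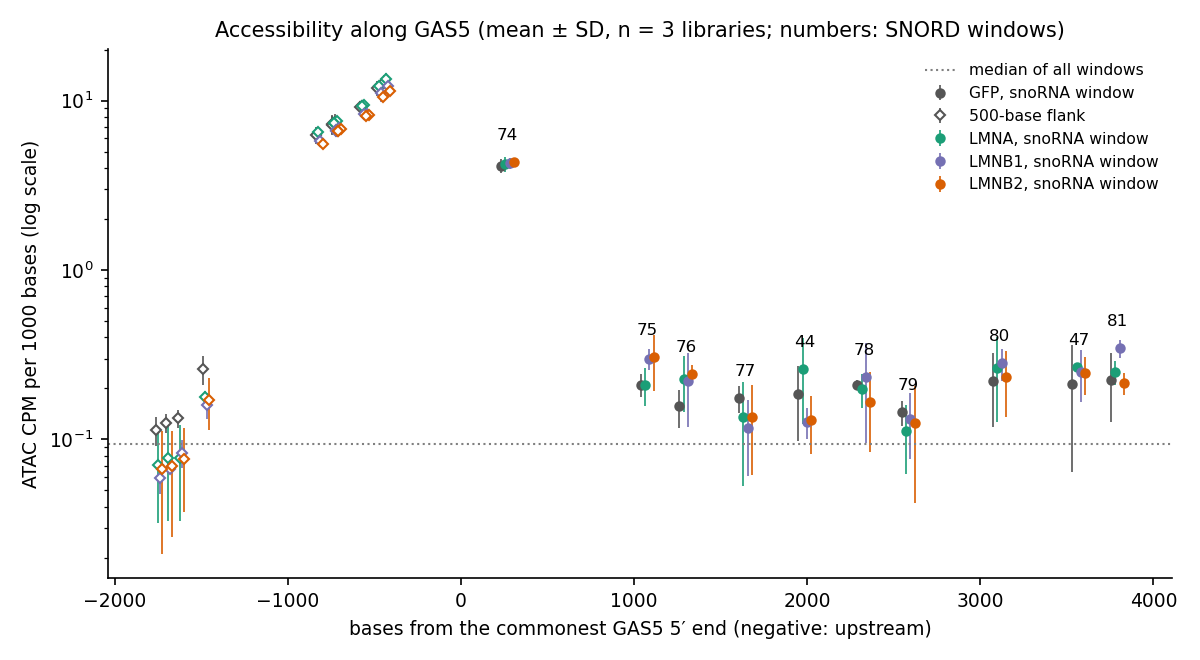
ATAC CPM per 1000 bases (log axis) against the distance in bases of each snoRNA's 5′ end, or each flank's midpoint, from the commonest GAS5 5′ end. Filled points are windows on the snoRNAs, labelled by SNORD number, open diamonds are 500-base flanks upstream of GAS5 intervals, error bars are SD over 3 libraries, and the dotted line is the median of all windows. The SNORD74 window and the flanks just upstream stood above the other 9 windows in every group.

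No window on a snoRNA passed the same test on the ATAC counts. All 10 windows were tested, and 0 of 10 were called in LMNA (background 0.000611%, 1 of 163786 windows), in LMNB1 (0.00305%), in LMNB2 (0.00244%) and in the joint test of the lamins (0.0916%), with lowest adjusted p of 0.987, 0.978, 0.921 and 0.837 by edgeR. None of the 10 had an unadjusted p under 0.05, beside 5.19%, 4.78%, 5.72% and 6.24% of all windows in these 4 tests. SNORD74's window read 3.84, 4.59 and 3.98 CPM per 1000 bases with GFP, 4.37, 4.57 and 3.76 with LMNA, 4.57, 4.32 and 3.96 with LMNB1, and 4.27, 4.15 and 4.56 with LMNB2. The groups overlapped, and the log2 fold changes were 0.03 ± 0.11, 0.05 ± 0.11 and 0.06 ± 0.11. At the other 9 windows log2 fold changes ran from -0.52 to 0.58 with SE of 0.38 to 0.60, so differences of that size were not detectable at their depth. All 3 lamin libraries exceeded all 3 GFP libraries at SNORD75 and SNORD81 with LMNB1 (2 of 10, beside 4.62% of all windows) and at SNORD76 with LMNB2 (1 of 10, beside 5.59%), each on at most 44 counts.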

How the data were processed

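Small RNA and ATAC counts were used from 12 libraries each of HEK293 cells, 3 per group. The authors deposited whole-number counts per annotated non-coding feature (small RNA) and per window on each feature and its flanks (ATAC), on GRCh38 per the submitters' processing notes. The aligner, the counting rule, the handling of strand, of reads with several matches and of duplicates are not given in the sources used here. Samples were grouped by the overexpressed gene in the labels.

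The 10 snoRNAs were matched by name among rows without a lncRNA label. The members, lists and tests were chosen with earlier results of these data known. Each assay was fitted as a whole with edgeR 4.0.16 in R 4.3.3 (filterByExpr, TMM scaling, robust quasi-likelihood fit, prior count of 2, a mean per group, Benjamini-Hochberg adjustment over all tested features), and a feature was called at an adjusted p under 0.05. An SE is the log2 fold change, without the prior, divided by the square root of F. Levels are CPM per 100 bases (small RNA) or per 1000 bases (ATAC) of interval. DESeq2 1.42.0, other scalings and filters, a replicate block and fits without each library were alternatives, the fits of lamin pairs and the total over features that share no base with the snoRNAs were added after seeing the data. The fits were tested on simulated counts, with the same spread in every group and with features above a count floor changed in LMNB1. For small RNA, 29% of log2 changes of 1 and 88% of log2 changes of 2 were recovered, with 5 false calls. For ATAC, 91% and 100% were recovered, with 14 false calls. Within each group the libraries differed beyond sampling noise (chi-square per degree of freedom of 30.3 to 1119 for small RNA and 3.18 to 29.0 for ATAC), so all were kept as separate samples. Named features beyond the 10 were, per host gene list, at most the 2 of highest mean CPM, and the 3 features of at least 1 CPM most correlated with the mean of the 10. SNORD and promoter coordinates from RefSeq are of GRCh38.p14, and no snoRNA sequence was used here.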

Additional observations from a re-analysis of the deposited data

How the results depend on the processing

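Calls on the 10 snoRNAs depended on the control libraries and on which libraries shared the fit. Leaving out a library in turn gave 0 to 1 called snoRNAs for LMNA and 0 to 5 for LMNB2 against GFP, all gained calls arising without GFP replicate 3, and 3 to 6 in the joint test on the 9 lamin libraries. For LMNB2 against GFP, SNORD77 was called with no count filter (1 of 10) and in the replicate block fit (1 of 10, log2 fold change -0.90, adjusted p = 0.031 by edgeR, beside 0.690% of all features called lower). The joint test of the lamins called 3 of 10 by DESeq2 (SNORD47, SNORD75 and SNORD80, beside 6.29% of all features) and 4 of 10 with only the lamin libraries (beside 12%). No ATAC window on a snoRNA was called under any setting run, but not every setting could call them. By DESeq2 no window of the 10 had an adjusted p for LMNB1 against GFP. With only the libraries compared, 9 of the 10 were tested for LMNA against GFP.

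Libraries of the same replicate number were at most weakly related. Correlations of same-numbered deviations were -0.04 to 0.23 for small RNA and -0.08 to 0.19 for ATAC, with 2 of 18 over 0.1 in each assay. In each assay 7 of 12 libraries correlated best with their own number, so a weak pairing cannot be told from none. With the replicate block, called features numbered 729 in small RNA LMNB2 (901 without it), 60 in ATAC LMNA (1 without it) and 553 in the ATAC joint test (150 without it).

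Counts of called features over the whole tables moved as follows. Small RNA LMNA: 111 with no count filter and 70 by DESeq2. Small RNA LMNB1: 127 with no count filter, 21 by DESeq2, 6 with only the libraries compared and 1 without lncRNA features. Small RNA LMNB2: 71 at an adjusted p under 0.01, 282 on total counts, 250 on total counts of features that share no base with the snoRNAs, 1745 with no filter, 21 with only the libraries compared and 145 without lncRNA features. Small RNA joint test: 177, 275, 357, 1667, 3887 and 73 under the same 6 settings, and 2129 by DESeq2. On total counts, by DESeq2 and with only the libraries compared, ATAC gave 184, 60 and 0 for LMNA, 110, 62 and 19 for LMNB1, 99, 116 and 67 for LMNB2, and 95, 1684 and 821 for the joint test, which had 9 at an adjusted p under 0.01. Leaving out each library gave 0 to 304 (small RNA LMNA), 9 to 36 (LMNB1), 51 to 2101 (LMNB2), 117 to 2222 (joint), and 0 to 222, 5 to 12, 4 to 13 and 8 to 1118 for the same ATAC comparisons. The cause was not tested, apart from fewer tested features without lncRNA rows and fewer libraries in the fit.

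Uncalled log2 fold changes near 0 changed sign. On total counts small RNA values became 0.12 (SNORD80), 0.029 (SNORD47) and 0.061 (SNORD81) for LMNA, 0.077 (SNORD75) for LMNB1 and 0.17 (SNORD76) for LMNB2, and ATAC values 0.066 (SNORD75) and 0.019 (SNORD78) for LMNA, 0.049 (SNORD79) for LMNB1 and 0.048 (SNORD81) for LMNB2. On total counts of features that share no base with the snoRNAs, SNORD80 was 0.011 for LMNA and SNORD75 0.039 for LMNB1, and without lncRNA features SNORD76 was -0.11 for LMNA. Ranges over left-out libraries that crossed 0 were, for small RNA LMNA, -0.37 to 0.37 (SNORD47), -0.19 to 0.68 (SNORD76), -0.53 to 0.027 (SNORD77), -0.60 to 0.21 (SNORD79), -0.31 to 0.60 (SNORD80) and -0.42 to 0.54 (SNORD81). For LMNB1 they were -0.74 to 0.014 (SNORD47), -0.26 to 0.088 (SNORD75), -0.61 to 0.28 (SNORD76), -0.52 to 0.041 (SNORD77), -0.76 to 0.074 (SNORD79), -0.88 to 0.041 (SNORD80) and -0.89 to 0.10 (SNORD81), and for LMNB2 -0.50 to 0.39 (SNORD76) and -0.84 to 0.089 (SNORD80). For ATAC LMNA they were -0.021 to 0.90 (SNORD47), -0.029 to 0.11 (SNORD74), -0.19 to 0.13 (SNORD75), -0.23 to 0.081 (SNORD78), -0.20 to 0.58 (SNORD80) and -0.15 to 0.38 (SNORD81). For ATAC LMNB1 they were -0.10 to 0.82 (SNORD47), -0.17 to 0.52 (SNORD78) and -0.44 to 0.079 (SNORD79), and for ATAC LMNB2 -0.14 to 0.78 (SNORD47), -0.58 to 0.015 (SNORD78), -0.70 to 0.16 (SNORD79), -0.17 to 0.46 (SNORD80) and -0.34 to 0.19 (SNORD81). Depth limits SNORD77 RNA (45 to 193 counts) and the 9 ATAC windows other than SNORD74's (5 to 44 counts).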
